A study of Mus musculus with 6 samples.

Results

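The ion-pumping ATPases described here are the genes whose symbols begin with Atp1b, Atp2a, Atp2b, Atp2c, Atp6v or Atp6ap. They were chosen by symbol, with earlier results of these data known, and 33 of the 16060 rows of the deposited table carry such a symbol. Messenger RNA of the hippocampus was compared between 3 mice labelled Control, which received saline, and 3 mice labelled MA, which received methamphetamine (MA), each sample labelled as 1 mouse. All 6 mice were C57BL/6, and the methods describe them as adult males. There, MA was injected at doses that rose from week to week, saline was injected in the control group, and brains were taken after behavioral tests for anxiety. The labels give no transgene, deletion or further agent for either group. The table is headed as RPKM, a read count scaled by gene length and library size. Levels can thus be set beside each other between genes, but only roughly, as the gene lengths used are not known. The entries of the table were taken as log2 of the RPKM plus 1, the scale of every level and difference below. On this scale, differences of low genes are understated.

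These pumps spend ATP to move ions against their gradients. The Na/K pump expels sodium and takes up potassium. Its beta subunit (Atp1b) carries the catalytic subunit to the membrane, and restoring ion gradients after firing makes the pump a main consumer of energy in the brain. Calcium is pumped into the endoplasmic reticulum by the SERCA pumps (Atp2a), out of the cell by the plasma membrane calcium pumps (PMCA, Atp2b) and into the Golgi by the secretory pathway pumps (SPCA, Atp2c). The vacuolar ATPase (V-ATPase) is a rotary proton pump that acidifies lysosomes and synaptic vesicles. Its V1 sector in the cytosol (Atp6v1) splits ATP, its V0 sector in the membrane (Atp6v0) carries the protons, and accessory proteins (Atp6ap) help to assemble it.

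The table gives no read totals, and the sequencing depth is therefore unknown. Across the tested genes, the mean correlation of a library with the others of its group was between 0.991 and 0.993 for the control libraries and between 0.978 and 0.985 for the MA libraries, lowest in MA replicate 3. The count of genes listed at 0 was 0 in MA replicate 3. In the other libraries it ran from 259 (MA replicate 2) to 437 (control replicate 1), and the cause was not tested. The 5 neuronal and 4 hippocampal marker genes were present in every library. All 7 choroid plexus markers and all 5 erythrocyte markers lay higher in each MA library than in each control library, as did 7.32% of all tested genes. The marker lists were chosen with earlier results of these data known. Summed on the linear scale, the choroid plexus markers were between 65.6 and 421 in the control libraries and between 1776 and 5079 in the MA libraries, and the erythrocyte markers were between 1599 and 2024 and between 3319 and 4378. The 4 hippocampal markers summed to between 123 and 149.8 in the control and between 98.2 and 111 in the MA libraries. Of the 4, 2 were lower in each MA library than in each control library, as were 10.2% of all tested genes. No marker was listed at 0 in any library. The 5 thalamic markers summed to between 20.95 and 26.5 in the control libraries and to 48.1, 62.5 and 21.1 in MA replicates 1, 2 and 3. In bulk tissue, fewer cells of a type and less RNA per cell cannot be told apart. The part of tissue composition in the pump values below was not tested.

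No ion-pump gene passed the test for a difference between the MA and control groups, although 2 did when MA replicate 3 was left out, as described below. Genes had to reach 0.5 on the linear scale in 3 or more libraries, which 32 of the 33 genes met and 13321 genes met in all. By limma, 0 of the 32 pump genes passed an adjusted p under 0.05 (Benjamini-Hochberg over all tested genes), against 0.263% of all tested genes. At an unadjusted p-value under 0.05 the limma count was also 0 of 32, where 10.4% of all tested genes passed. The lowest unadjusted p of the 32 was 0.0618 and the lowest adjusted p 0.505, both for Atp6v1c2. The 3 MA libraries lay wholly above the 3 control libraries for 0 pump genes (7.32% of all tested genes) and wholly below for 3 (10.2% of all tested genes), namely Atp2b1, Atp6v0a2 and Atp6v0d1.

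The differences between group means were small. The mean of the MA libraries was higher for 19 of the 32 genes and lower for 13, with a median log2 difference of 0.030, whereas the median over all tested genes was -0.010. The values ran from -0.31 for Atp2b1 to 0.41 for Atp2b4. The 95% interval of the difference (limma) stayed inside ±1 on the log2 scale for 29 of the 32 genes, so that for these a 2-fold difference on this scale lay outside it. It stayed inside ±0.5 for 23. The intervals of Atp2a1, Atp2b3 and Atp2b4 reached beyond 1. By class, the median log2 difference was -0.030 for the 3 Na/K beta genes, 0.099 for the 3 SERCA genes, 0.12 for the 4 PMCA genes and 0.13 for the 2 SPCA genes. It was 0.014 for the 10 tested V1 genes, -0.0068 for the 7 tested V0 genes and 0.11 for the 3 accessory genes.

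**Figure D1:**
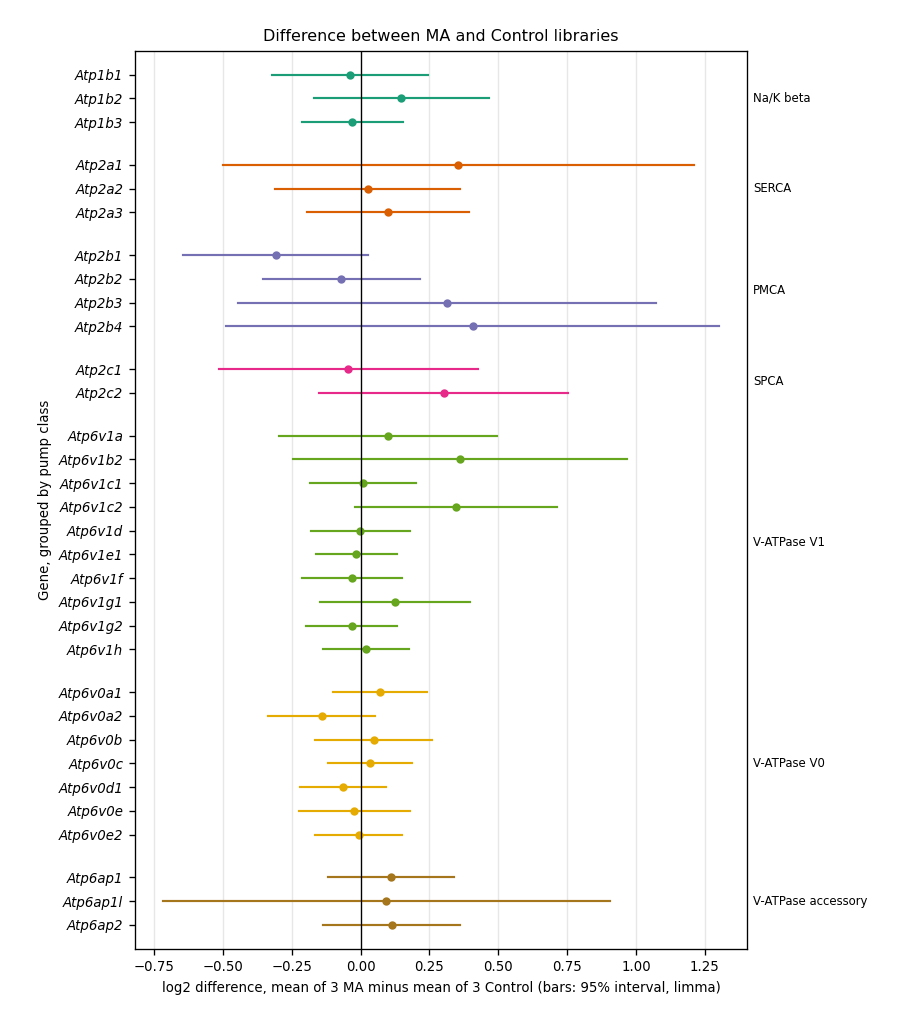
Difference between groups for each of the 32 tested pump genes on the log2 scale, as the mean of the 3 MA minus the mean of the 3 control libraries (points), with its 95% interval from limma (bars) and colors for the pump classes. All 32 intervals cross 0, and the points run from -0.31 to 0.41.

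Levels ordered the genes of each class in nearly the same way in every mouse. Atp1b1 was at a mean of 9.76 over the 6 libraries and Atp6v0c at 10.1, the 2 highest of the family, and Atp6v0a4 was lowest with a mean of 0.244. The order by mean level of neighbours within a class held in all 6 libraries for 23 of the 26 neighbouring pairs. The exceptions stood in the V1 sector, where Atp6v1d exceeded Atp6v1b2 in 4 of 6 libraries, and where Atp6v1a exceeded Atp6v1c1, and Atp6v1c1 exceeded Atp6v1g1, in 5 of 6. Levels of Atp6v0c are uncertain because 2 annotated pseudogene copies exist, among which reads could be split.

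**Figure D2:**
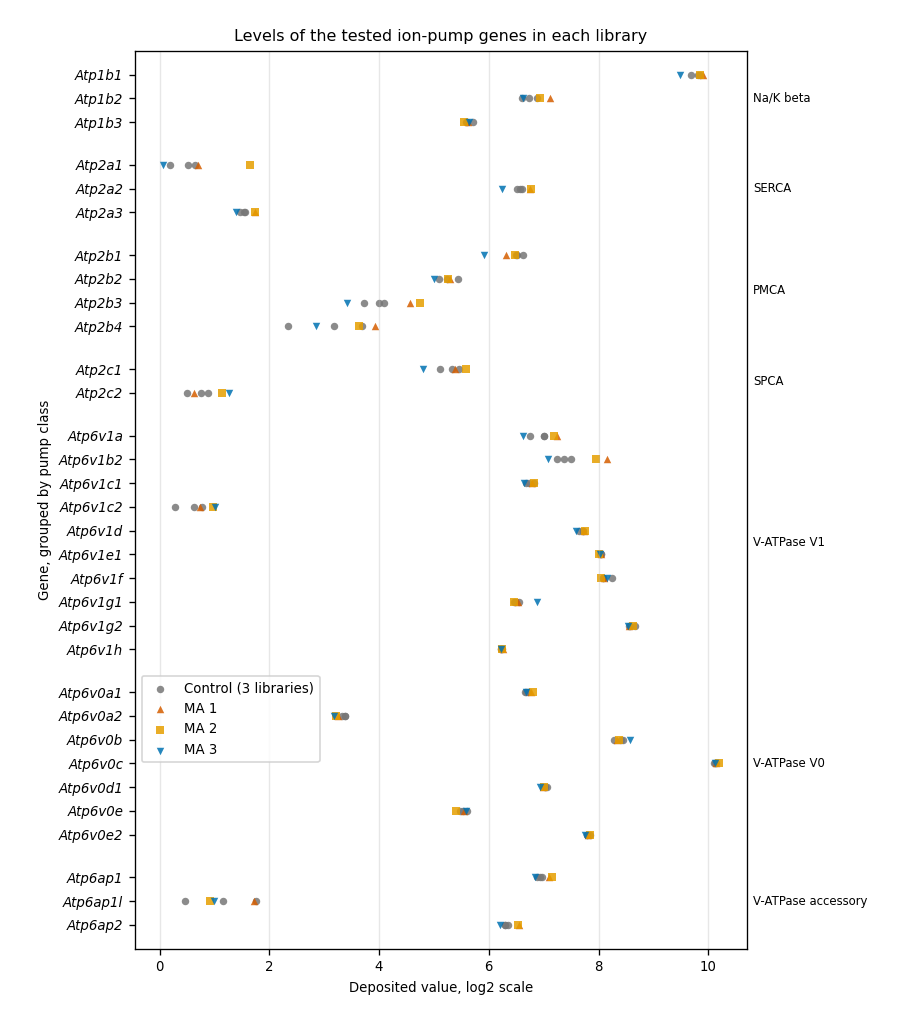
Deposited log2 values of the 32 tested pump genes in each library, grouped by pump class, with the control libraries in gray and MA replicates 1, 2 and 3 as separate symbols. Levels span from near 0 to 10.2, with Atp6v0c highest in every library.

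The beta subunits of the Na/K pump were dominated by Atp1b1, which neurons express strongly. It was 9.84, 9.69 and 9.81 in control replicates 1, 2 and 3 and 9.91, 9.84 and 9.48 in MA replicates 1, 2 and 3, a log2 difference of -0.038 (standard error 0.12, 95% interval -0.32 to 0.25, limma adjusted p = 0.945, exact permutation p = 1). MA replicate 3 was the lowest of the 6 libraries and MA replicate 1 the highest. Atp1b1 overlaps exons of Nme7 on the other strand, and whether counting used strand is not given in the sources used here. For Atp1b2, a beta subunit of glia that also acts in cell adhesion, the values were 6.60, 6.74 and 6.88 in the control and 7.11, 6.93 and 6.63 in the MA libraries. The log2 difference was 0.15 (standard error 0.14, 95% interval -0.17 to 0.47, limma adjusted p = 0.760, exact permutation p = 0.4). Atp1b3 was 5.63 ± 0.08 and 5.60 ± 0.05 (SD, n = 3 each). The share of Atp1b1 among the beta subunits was 85.01% ± 1.3 in control and 83.8% ± 0.8 in MA mice (SD, n = 3 each).

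Calcium pumps of the endoplasmic reticulum were represented almost wholly by Atp2a2 (SERCA2), the isoform of most tissues. Its share of the class was 97.6% ± 0.4 in control and 97.0% ± 0.9 in MA mice (SD, n = 3 each). The values of Atp2a2 were 6.57, 6.51 and 6.60 in control replicates 1, 2 and 3 and 6.75, 6.76 and 6.24 in MA replicates 1, 2 and 3. MA replicates 1 and 2 were above and MA replicate 3 was below all control libraries, and the log2 difference was 0.025 (standard error 0.14, 95% interval -0.31 to 0.36, limma adjusted p = 0.971, exact permutation p = 1). Atp2a3 was low, at 1.52 ± 0.05 and 1.62 ± 0.20 (SD, n = 3 each). Atp2a1, the isoform of fast skeletal muscle, was at the edge of detection, with 0.511, 0.638 and 0.188 in the control and 0.699, 1.64 and 0.058 in the MA libraries. Only 1 control library and 2 MA libraries reached the filter for Atp2a1, whose log2 difference was 0.35 (standard error 0.37, 95% interval -0.50 to 1.21, limma adjusted p = 0.797, exact permutation p = 0.6). Exons of Atp2a1 overlap Rabep2, and those of Atp2a2 overlap Gm43361, each on the other strand.

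On the deposited scale, the plasma membrane calcium pumps held the lowest and the highest difference of the family, whereas with a pseudocount of 0.1 in place of 1 the low genes Atp6v1c2 (0.82), Atp2c2 (0.58) and Atp2a1 (0.49) exceeded Atp2b4 (0.46). Atp2b1 (PMCA1), the isoform found in most cells, lies on chromosome 10 of GRCm38 from 98914406 to 99026143 and has the longest exonic sequence of the family, 15218 bases. It was 6.62, 6.502 and 6.52 in control replicates 1, 2 and 3 and 6.32, 6.48 and 5.91 in MA replicates 1, 2 and 3. Each MA library was below each control library, with MA replicate 2 just below the lowest control library. The log2 difference of -0.31 (standard error 0.14, 95% interval -0.64 to 0.027, limma adjusted p = 0.517) gave a two-sided p of 0.1 in the exact permutation test, the smallest that 3 against 3 libraries allow. Without MA replicate 3 the difference was -0.15 (limma adjusted p = 0.3001), and with length and GC content of the exons corrected for it was -0.23 (limma adjusted p = 0.390). Atp2b3 (PMCA3, chromosome X from 73503086 to 73571005), an isoform of excitable tissue, measured 3.99, 3.72 and 4.08 in the control and 4.57, 4.74 and 3.42 in the MA libraries. The spread within the MA group (SD 0.72, n = 3) exceeded the log2 difference of 0.31 (standard error 0.32, 95% interval -0.44 to 1.07, limma adjusted p = 0.797, exact permutation p = 0.5). Atp2b4 varied widely in both groups, with 2.33, 3.17 and 3.69 in the control and 3.93, 3.63 and 2.85 in the MA libraries, and a log2 difference of 0.41 (standard error 0.38, 95% interval -0.49 to 1.302, limma adjusted p = 0.770, exact permutation p = 0.6). The difference of Atp2b4 was 0.042 without control replicate 1, 0.72 without control replicate 3, 0.18 without MA replicate 1 and 0.72 without MA replicate 3. Exons of Atp2b4 overlap Mir6903 on the same strand. The neuronal Atp2b2 was 5.26 ± 0.17 and 5.19 ± 0.16 (SD, n = 3 each). Atp2b1 made up 60.9% ± 4.4 of the summed values of this class in control and 53.7% ± 2.3 in MA mice (SD, n = 3 each). The share of Atp2b3 was 14.8%, 15.8% and 9.14% in MA replicates 1, 2 and 3, against 9.39% ± 0.95 in the control libraries (SD, n = 3).

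**Figure D3:**
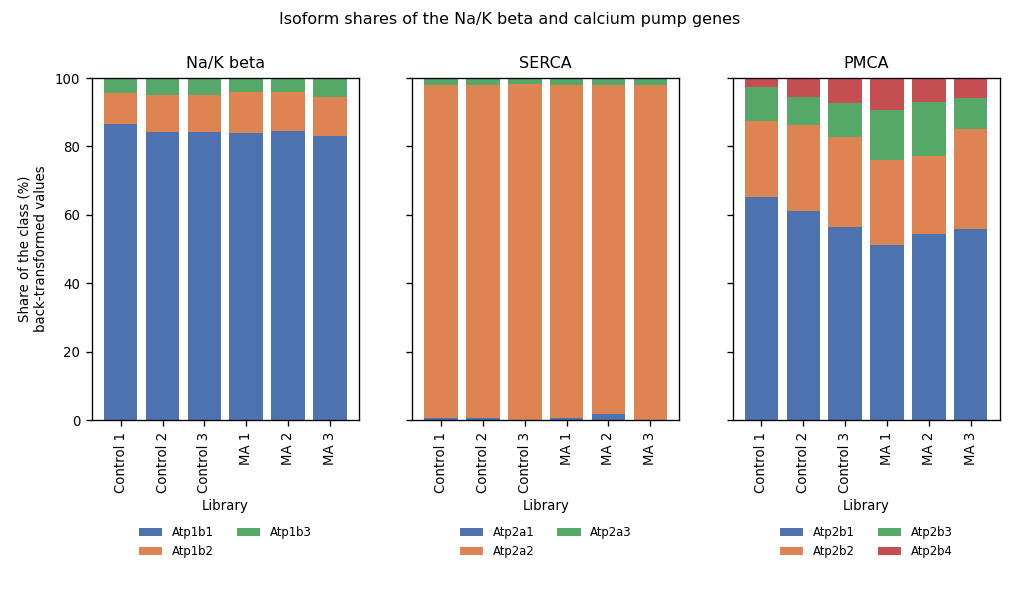
Share of each isoform in the summed back-transformed values of its class (%), as stacked bars for each library, for the Na/K beta, SERCA and plasma membrane calcium pump genes. Atp1b1 held between 82.9% and 86.5% of the Na/K beta values, and Atp2b1 between 51.2% and 65.2% of the plasma membrane calcium pump values.

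Of the secretory pathway pumps, the widely expressed Atp2c1 was 5.46, 5.12 and 5.33 in control replicates 1, 2 and 3 and 5.39, 5.59 and 4.80 in MA replicates 1, 2 and 3. The log2 difference was -0.044 (standard error 0.20, 95% interval -0.52 to 0.43, limma adjusted p = 0.960, exact permutation p = 0.9), and the MA libraries lay on both sides of the control range. Atp2c1 overlaps an exon of Aste1 on the other strand. Atp2c2, an isoform of secretory epithelia, was low, at 0.750, 0.888 and 0.493 in the control and 0.627, 1.14 and 1.27 in the MA libraries, a log2 difference of 0.30 (standard error 0.19, 95% interval -0.15 to 0.75, limma adjusted p = 0.655, exact permutation p = 0.3).

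Within the V1 sector, the log2 differences ran from -0.032 to 0.12 for all tested genes but Atp6v1b2 and Atp6v1c2. Levels were highest for Atp6v1g2, a stalk subunit enriched in neurons, with 8.67, 8.57 and 8.56 in the control and 8.55, 8.62 and 8.53 in the MA libraries. Its log2 difference was -0.032 (standard error 0.071, 95% interval -0.20 to 0.13, limma adjusted p = 0.919, exact permutation p = 0.5), although it overlaps Nfkbil1 on the other strand. Atp6v1e1, another stalk subunit, was the steadiest of the family, at 8.04 ± 0.01 and 8.02 ± 0.01 (SD, n = 3 each), and its exons overlap Slc25a18 on the other strand. Atp6v1b2 (ENSMUSG00000006273, chromosome 8 of GRCm38 from 69088646 to 69113711) encodes the B2 subunit, the nucleotide-binding partner of the catalytic A subunit in brain. It was 7.36, 7.25 and 7.497 in control replicates 1, 2 and 3 and 8.16, 7.96 and 7.07 in MA replicates 1, 2 and 3. The log2 difference of 0.36 (standard error 0.26, 95% interval -0.25 to 0.97, limma adjusted p = 0.692, exact permutation p = 0.4) was smaller than the SD of 0.58 within the MA group. Atp6v1a, the catalytic subunit, showed the same order of libraries, with 6.996, 6.75 and 7.01 in the control and 7.24, 7.19 and 6.63 in the MA libraries. Atp6v1c2, a C subunit isoform of kidney and lung, was near the limit of the filter, at 0.279, 0.622 and 0.774 in the control and 0.742, 0.967 and 1.00 in the MA libraries, with a log2 difference of 0.35 (standard error 0.16, 95% interval -0.022 to 0.71, limma adjusted p = 0.505, exact permutation p = 0.2) and exons that overlap Pdia6 on the other strand.

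In the V0 sector, the log2 differences ran from -0.14 to 0.070. Atp6v0c, the proteolipid of the proton-carrying ring, was 10.10, 10.12 and 10.15 in the control and 10.15, 10.20 and 10.12 in the MA libraries, a log2 difference of 0.034 (standard error 0.066, 95% interval -0.12 to 0.19, limma adjusted p = 0.908, exact permutation p = 0.5). Atp6v0a2, a Golgi isoform of the large membrane subunit, was 3.37, 3.33 and 3.38 in the control and 3.26, 3.22 and 3.18 in the MA libraries, each MA library below each control library. Its log2 difference was -0.14 (standard error 0.083, 95% interval -0.34 to 0.053, limma adjusted p = 0.616, exact permutation p = 0.1), and an antisense transcript overlaps it. Atp6v0d1, which couples the ring to the central stalk, was 7.07, 7.02 and 7.02 in the control and 6.98, 7.01 and 6.94 in the MA libraries. These groups also did not overlap, with a log2 difference of -0.063 (standard error 0.067, 95% interval -0.22 to 0.094, limma adjusted p = 0.805, exact permutation p = 0.1). The neuronal isoform Atp6v0a1 was 6.69 ± 0.03 and 6.75 ± 0.07 (SD, n = 3 each). Atp6v0a4, an isoform of the kidney, fell under the filter, with values from 0 to 0.471 in the control and from 0.035 to 0.616 in the MA libraries. Its exons overlap D630045J12Rik on the same strand and Tmem213 on the other. The summed linear values of the 8 V0 genes lay between 1946 and 1964 in the control and between 1965 and 2023 in the MA libraries. The groups nearly touched, at 1963.7 in control replicate 2 and 1964.6 in MA replicate 1. Atp6v0c, whose level is uncertain, made up 56.9% ± 1.1 of the sum in control and 57.2% ± 1.1 in MA mice (SD, n = 3 each). The sums of the 10 V1 genes lay between 1666 and 1711 in the control and between 1624 and 1832 in the MA libraries.

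Of the accessory proteins, Atp6ap1 (Ac45) was 6.87, 6.94 and 6.96 in control replicates 1, 2 and 3 and 7.10, 7.16 and 6.84 in MA replicates 1, 2 and 3, a log2 difference of 0.11 (standard error 0.098, 95% interval -0.12 to 0.34, limma adjusted p = 0.751, exact permutation p = 0.4). Atp6ap2, the prorenin receptor, was 6.30, 6.29 and 6.35 in the control and 6.55, 6.53 and 6.20 in the MA libraries. In both genes MA replicates 1 and 2 stood above, and MA replicate 3 below, every control library. Atp6ap1l, a relative of Atp6ap1, was low and varied widely, at 1.12 ± 0.65 and 1.21 ± 0.44 (SD, n = 3 each). Atp6ap1 and Atp6ap2 kept nearly fixed proportions, with Atp6ap1 at 60.1% ± 0.3 of the accessory sum in control and 60.1% ± 1.0 in MA mice (SD, n = 3 each).

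The MA libraries were divided among themselves, an arrangement noticed in these values and described without a test. In MA replicate 1, 14 of the 32 genes lay above every control library and 4 below, against 32.4% and 34.1% of all tested genes. In MA replicate 2 the counts were 16 above and 7 below, against 30.4% and 32.4%. MA replicate 3 had 4 above and 19 below, against 32% and 38.3%. For 9 of the 32 genes, or 28.1%, MA replicates 1 and 2 were both above and MA replicate 3 was below all control libraries, an arrangement shown by 8.82% of all tested genes. These 9 genes were Atp2a1, Atp2a2, Atp2a3, Atp2b3, Atp6ap1, Atp6ap2, Atp6v1a, Atp6v1b2 and Atp6v1d. The range over the MA libraries was wider than that over the control libraries for 25 of the 32 genes, or 78.1%, near the 70.9% of all tested genes.

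**Figure D4:**
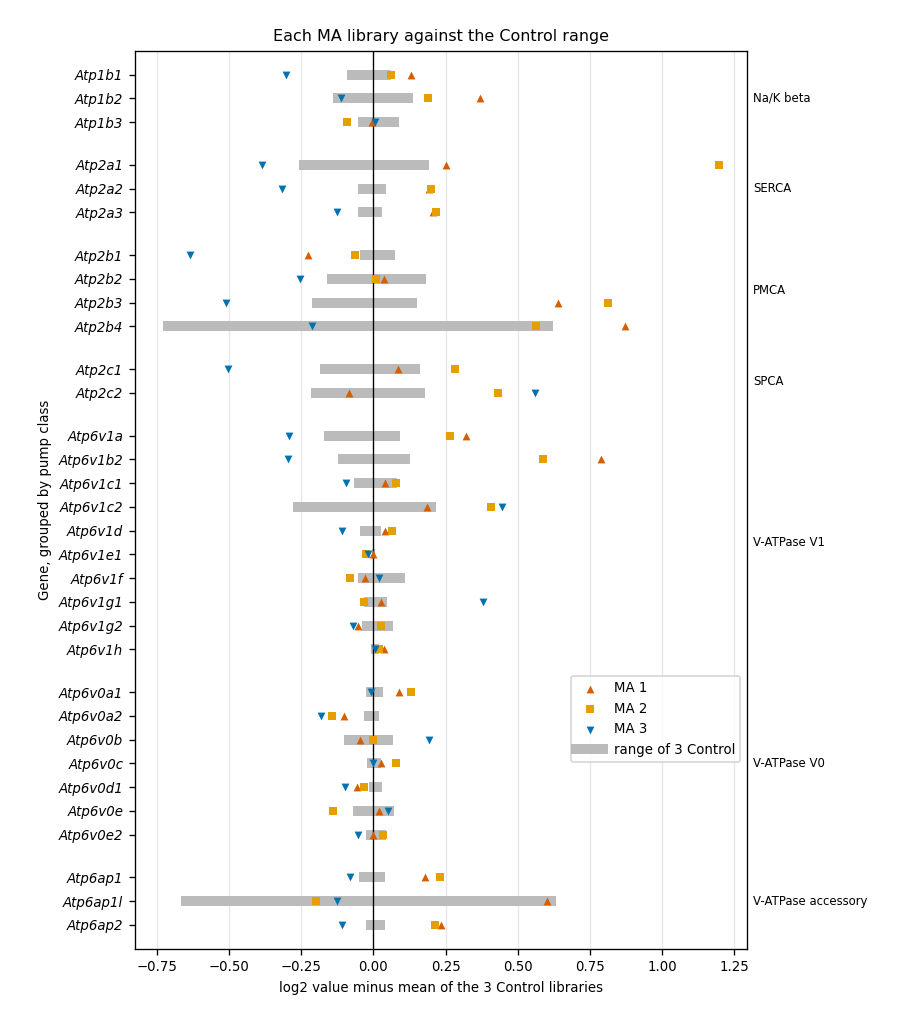
Value of each MA library minus the mean of the 3 control libraries, on the log2 scale, for the 32 tested pump genes, with gray bars for the range of the control libraries. MA replicates 1 and 2 lie above the gray bar for 14 and 16 genes, and MA replicate 3 lies below it for 19.

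When MA replicate 3 was left out, 2 of the 32 genes passed an adjusted p-value under 0.05 (limma), where 1.93% of all tested genes did, and 8 passed an unadjusted p-value under 0.05, where 23.3% did. All 8 were higher in the 2 remaining MA libraries, namely Atp1b2, Atp2a1, Atp2a2, Atp2b3, Atp6ap1, Atp6ap2, Atp6v1a and Atp6v1b2. All of them but Atp1b2 are among the 9 genes of the arrangement given above, so these calls largely restate it. Atp2a1 reached the filter in only 1 control library and 2 MA libraries. The 2 genes past the adjusted threshold were Atp6v1b2, with a log2 difference of 0.69 (standard error 0.10, limma adjusted p = 0.0310) and Atp2b3, with 0.73 (standard error 0.12, limma adjusted p = 0.0465). These calls rest on 2 MA mice. The same differences were 0.15 and 0.15 without MA replicate 1, and 0.25 and 0.064 without MA replicate 2. Each of the 5 neuronal markers lay below every control library in MA replicate 3, as did 38.3% of all tested genes. Among these 5 genes, Syt1, a synaptic vesicle protein gene, alone lay above every control library in both other MA libraries, at 7.87, 7.83 and 8.01 in the control and 8.18, 8.13 and 7.43 in the MA libraries. The 5 neuronal markers summed to between 2025 and 2189 on the linear scale in the control libraries and to 2243, 2318 and 1758 in MA replicates 1, 2 and 3. The 6 astrocyte markers summed to between 461 and 503 in the control libraries and to 553, 479 and 341 in the same MA libraries. Of these 6 genes, Slc1a2 and Slc1a3 were above every control library in MA replicates 1 and 2 and below in MA replicate 3, whereas Gfap, Aqp4, Aldh1l1 and Gja1 were below every control library in MA replicate 2. The thalamic marker sum given above had its highest values in MA replicates 1 and 2 as well. The 5 oligodendrocyte markers summed to between 2759 and 2995 in the control libraries and to 3077, 2632 and 3193 in MA replicates 1, 2 and 3. For the 3 endothelial markers the sums were between 43.9 and 46.6, then 60.5, 54.1 and 50.5, although Pecam1 and Flt1 were below every control library in MA replicate 3. For the 4 microglial markers they were between 54.4 and 56.9, then 57.45, 53.2 and 47.45. The part of these markers in the pump values was not tested.

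Exonic length, taken from GENCODE M21, also moved with the values of MA replicate 3. Across the 32 pump genes, the Spearman correlation between exonic length and the difference of a library from the control mean was -0.56 for MA replicate 3, whereas it was 0.19 for MA replicate 1 and 0.26 for MA replicate 2. Over the 13302 tested genes with a length, the same correlations were -0.30, 0.15 and 0.17. All points of a correlation share 1 library and the same control mean, and the genes are no independent replicates, so that the values are descriptions. The short Atp6v1g1, with 1135 exonic bases, was 6.88 in MA replicate 3 and between 6.47 and 6.54 in the other 5 libraries, while Atp2b1, the longest, was lowest in MA replicate 3. The correction for length and GC content, which was added with the data in view, was run on all 6 libraries only. There the log2 differences of Atp6v1b2 and Atp2b3 were 0.37 and 0.30, against 0.36 and 0.31 before it, and 0 of the 32 genes passed the adjusted threshold (limma), where 0.233% of all tested genes did.

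**Figure D5:**
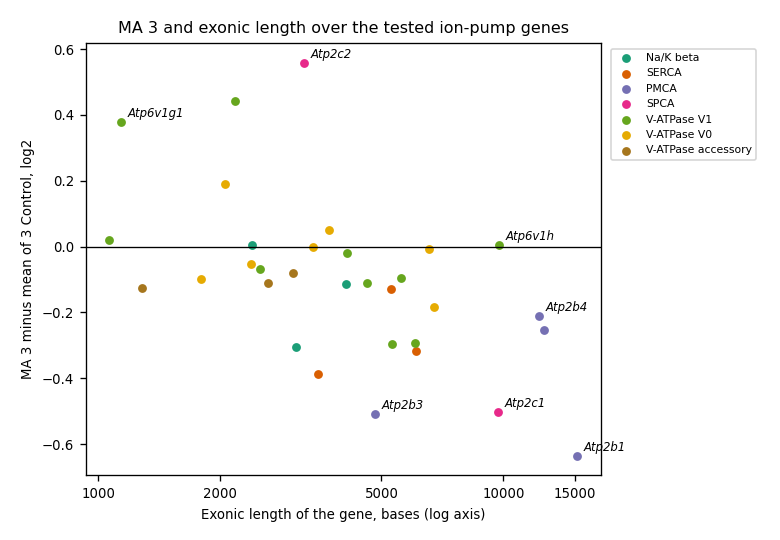
Value of MA replicate 3 minus the mean of the 3 control libraries, on the log2 scale, against the exonic length in bases (log axis) for the 32 tested pump genes, colored by class. Longer genes tend to lie lower in this library (Spearman -0.56), from Atp6v1g1 among the shortest to Atp2b1, the longest.

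Several pump promoters hold a palindrome that the transcription factor TFEB, a regulator of lysosomal genes, is known to recognize as the core of its CLEAR element. Promoter windows from RefSeq (GRCm38.p6, 250 bases before to 50 after the start) were found for 23 of the 33 genes, 31 windows in all. The letters TCACGTGA, which read the same on both strands and include the shorter CACGTG, were present in 4 of the 31 windows (12.9%), against 0.974% of the 32851 windows of all genes. The shorter CACGTG was in 6 of the 31 (19.4%), against 7.15%. The 4 windows with the longer palindrome, of genes of proton and calcium pumps, are shown. None of these genes passed an adjusted p under 0.05 (limma). Capitals mark TCACGTGA, and each is read 5′ to 3′ on the strand of its gene.
Atp6v1a (chr16:44139210-44139509, minus strand): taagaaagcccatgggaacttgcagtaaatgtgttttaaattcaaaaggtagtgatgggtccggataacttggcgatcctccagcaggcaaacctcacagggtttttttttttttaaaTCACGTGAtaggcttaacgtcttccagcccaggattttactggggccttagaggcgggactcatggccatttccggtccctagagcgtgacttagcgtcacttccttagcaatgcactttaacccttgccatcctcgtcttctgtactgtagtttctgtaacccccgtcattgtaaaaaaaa
Atp6v0d1 (chr8:105566015-105566314, minus strand): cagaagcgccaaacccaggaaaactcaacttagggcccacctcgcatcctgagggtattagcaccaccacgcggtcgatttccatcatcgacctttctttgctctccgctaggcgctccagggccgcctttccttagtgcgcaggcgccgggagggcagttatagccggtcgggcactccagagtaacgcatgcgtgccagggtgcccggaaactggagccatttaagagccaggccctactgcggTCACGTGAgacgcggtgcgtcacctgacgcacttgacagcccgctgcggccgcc
Atp6v0e (chr17:26676146-26676445, plus strand): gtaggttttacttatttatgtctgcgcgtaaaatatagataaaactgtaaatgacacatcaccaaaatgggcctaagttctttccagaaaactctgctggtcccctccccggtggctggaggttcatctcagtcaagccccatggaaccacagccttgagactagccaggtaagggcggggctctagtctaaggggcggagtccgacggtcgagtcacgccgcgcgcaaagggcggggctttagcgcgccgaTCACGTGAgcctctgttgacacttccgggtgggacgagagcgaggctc
Atp2b1 (chr10:98914392-98914691, plus strand): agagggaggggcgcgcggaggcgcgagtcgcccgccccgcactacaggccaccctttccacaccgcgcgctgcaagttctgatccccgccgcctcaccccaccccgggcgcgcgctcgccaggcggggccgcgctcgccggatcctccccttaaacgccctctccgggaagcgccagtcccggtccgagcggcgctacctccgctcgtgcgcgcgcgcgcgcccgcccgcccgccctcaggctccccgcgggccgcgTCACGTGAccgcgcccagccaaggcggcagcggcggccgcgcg
Of these 4 genes, Atp6v1a had MA libraries on both sides of the control range, and Atp6v0e had a log2 difference of -0.024 (limma adjusted p = 0.953). Atp6v0d1 and Atp2b1 had all MA libraries below the control range, as had 10.2% of all tested genes. Binding was not measured, and a match of letters is a description only. Tfeb itself was 2.78, 3.08 and 3.06 in control replicates 1, 2 and 3 and 2.47, 2.33 and 3.02 in MA replicates 1, 2 and 3, a log2 difference of -0.37 (standard error 0.19, 95% interval -0.81 to 0.080, limma adjusted p = 0.572, exact permutation p = 0.2).

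Genes that work with the pumps but carry other names were read from the same fit. Of 40 such genes, 34 were tested, 0 passed an adjusted p-value under 0.05 (limma), and 5 passed an unadjusted p-value under 0.05, or 14.7% against the 10.4% of all tested genes. Of the 34 genes, 4 lay wholly higher in the MA libraries (7.32% of all tested genes) and 3 wholly lower (10.2% of all tested genes), these 5 among them. Slc8a2, a sodium-calcium exchanger of neurons, was 6.59, 6.39 and 6.52 in the control and 6.17, 6.32 and 6.15 in the MA libraries (log2 difference -0.28, limma adjusted p = 0.345). Dmxl1, a regulator of V-ATPase assembly, had a log2 difference of -0.27 (limma adjusted p = 0.461). Bsg (basigin), a partner of the plasma membrane calcium pumps, was 8.85, 8.85 and 8.85 in the control and 9.02, 9.001 and 9.15 in the MA libraries (log2 difference 0.21, limma adjusted p = 0.385). Nkain4, which binds the Na/K pump, and Atp13a4, another P-type pump, had log2 differences of 0.23 (limma adjusted p = 0.323) and 0.33 (limma adjusted p = 0.350). Among the 6 tested FXYD regulators of the Na/K pump, the groups overlapped for each, and the log2 differences ran from -0.31 for Fxyd3 to 0.37 for Fxyd6.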

How the data were processed

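Hippocampal RNA of 3 Control and 3 MA mice was grouped by sample title. The authors deposited 1 table of log-scale values headed as RPKM, read here as log2 of RPKM plus 1. The study's methods name Hisat2 and featureCounts, whereas the submitters' processing notes list Bowtie 0.12.2 and older mouse builds, so the pipeline and build are uncertain. All 6 libraries had the same maximum, 12.298, as after a normalization between libraries, which can hide a shift shared by all genes. Depth is unknown.

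Genes reaching 0.5 on the linear scale in 3 or more libraries (13321) were tested with limma 3.58.1 in R 4.3.3 (lmFit, eBayes with trend, no covariate, Benjamini-Hochberg adjustment), and single genes with an exact two-sided permutation test. The fit was tested on simulated data. Named were called genes and, per class, the genes with the highest level and the lowest p. Atp2b3, Atp2b4, Atp6v1a, Atp6v1b2, Atp6v1e1, Atp6v1g1, Atp6v0a1, Atp6v0d1, Atp6v0e and Atp6ap2 were added after their values were seen. Members and lists were chosen with earlier results of these data known. The labels do not exclude shared cages or days, so p-values measure the spread between these libraries. GENCODE M21 (GRCm38) gave locations and exonic lengths for 33 of 33 genes. Of the 36 genes that the selection by symbol covers, 3 are not reported here. Alternatives were other filters, pseudocounts, scalings, weights and variance priors, the replicate number as a block, each library left out, and exonic length and GC corrected by lowess (span 0.3).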

Additional observations from a re-analysis of the deposited data

How the results depend on the processing

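No pump gene passed the adjusted threshold (limma) under any alternative except sample quality weights, which called 1 (Atp6v1b2, log2 difference 0.61, adjusted p = 0.0474) where 4.4% of all tested genes passed, and the fit without MA replicate 3, which called 2 (1.93% of all). With each library dropped in turn, from 0 to 2 genes passed the adjusted threshold (from 0% to 1.93% of all) and from 0 to 8 an unadjusted p under 0.05 (from 6.22% to 23.3% of all). The unadjusted count was 8 with sample quality weights (26.3% of all) and 1 each with no filter (10% of all), with the replicate block (6.32%) and with the length and GC correction (11.2%). Same-numbered libraries deviated from their group means with correlations of -0.197, -0.242 and -0.337, and 0 of 6 libraries correlated best with their own number. With 3 libraries per group, these values show no pairing by number but cannot exclude shared cages or days. The block called 0 pump genes at the adjusted threshold and 15 genes in all, against 35. The median of the secretory pathway pumps moved from 0.13 to -0.044 with a minimum mean of 5, where only Atp2c1 remained, and to 0.30 with a pseudocount of 0.01. Median differences with each library left out ran from -0.062 (without MA replicate 2) to 0.21 (without MA replicate 3) for SERCA, and from -0.054 (without control replicate 1) to 0.37 (without MA replicate 3) for PMCA. Of 17 alternatives, the sign of the class median changed in 5 for V0, 4 for Na/K beta, 2 for PMCA, 1 each for SERCA, SPCA and V1, and 0 for the accessory genes. No filter, the other variance prior and the replicate block cannot change a log2 difference in this design, so their signs were fixed in advance. The other scalings were weak checks, as the libraries already shared a maximum. For Atp1b1, the difference of -0.038 became -0.040 with median centring and -0.043 with quantile normalization. The length and GC correction with the block repeats the medians without it, and both count among the 5 for V0. With sample quality weights the difference of Atp2b1 was -0.13. For single genes too, no filter, the other variance prior and the replicate block could change only the side of the threshold, not the direction. Across settings other than leaving out a library, these included, 332 of 347 single-gene values kept their direction and their side of the threshold, and 14 changed sign, none past the threshold. Those with sample quality weights were log2 differences of 0.074 (Atp1b1), 0.23 (Atp2c1), 0.057 (Atp6v1d), -0.0028 (Atp6v1g1), 0.0064 (Atp6v1g2), -0.012 (Atp6v0b), 0.024 (Atp6v0e2) and -0.11 (Atp6ap1l), and those with the length and GC correction, with or without the replicate block, were 0.017 (Atp2c1), 0.051 (Atp6v1d) and 0.017 (Atp6v0e). Leaving out a library changed the sign of 16 genes, whose log2 differences over these fits ran from -0.12 to 0.094 (Atp1b1), -0.057 to 0.014 (Atp1b3), -0.067 to 0.73 (Atp2a1), -0.062 to 0.20 (Atp2a2), -0.15 to 0.022 (Atp2b2), -0.21 to 0.19 (Atp2c1), -0.012 to 0.29 (Atp6v1a), -0.027 to 0.059 (Atp6v1c1), -0.035 to 0.053 (Atp6v1d), -0.058 to 0.023 (Atp6v1f), -0.0028 to 0.20 (Atp6v1g1), -0.061 to 0.0018 (Atp6v1g2), -0.024 to 0.095 (Atp6v0b), -0.060 to 0.035 (Atp6v0e), -0.027 to 0.017 (Atp6v0e2) and -0.24 to 0.41 (Atp6ap1l). The cause of these changes was not tested. The length and GC correction was chosen after seeing the data. Unknown depth limits the statements on Atp2a1, Atp2c2, Atp6v1c2, Atp6ap1l and Atp6v0a4, which lay near or under the filter.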
